A study of Mus musculus with 6 samples.

Results

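The core cardiac transcription factors are the DNA-binding proteins that together switch on the gene programme of the heart muscle cell. Here they are the genes Gata4, Gata6, Nkx2-5, Tbx5, Tbx20, Mef2a, Mef2c, Mef2d, Hand2 and Srf, chosen by name from the gene names in the deposited count tables, 10 of the 34745 genes listed there. They were measured by RNA sequencing of the left ventricle in mice with myocardial infarction (MI), the death of muscle beyond a blocked coronary artery. The study has 3 MI-DAPA libraries, from infarcted mice given dapagliflozin, a drug that inhibits the sodium-glucose cotransporter SGLT2, and 3 MI-NS libraries, from infarcted mice given NS, an abbreviation that the labels do not spell out. The deposited tables of MI-NS carry a different abbreviation, SA, in their names, and the group is taken here from the labels. Both groups carry the infarct, and no heart without one is analysed here. The labels give no strain, age, dose or time after infarction. The comparison asks how the drug alters gene expression in the failing heart.

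GATA factors bind the core sequence GATA, T-box factors such as TBX5 and TBX20 bind T-box elements, NKX2-5 is a homeodomain protein and HAND2 a basic helix-loop-helix protein. MEF2 proteins and SRF belong to the MADS-box family and bind A/T-rich sites, which for SRF are called CArG boxes. These factors bind each other and shared enhancers, so that heart genes such as those for natriuretic peptides, sarcomere proteins and calcium-handling proteins are usually controlled by several of them at once. Many are also made outside heart muscle cells: GATA4, GATA6, HAND2 and TBX20 occur in cardiac fibroblasts or endocardium, and MEF2 factors and SRF in most cell types.

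Total counts per library were 19086206 to 20563188 in MI-DAPA and 17207974 to 20540321 in MI-NS. Levels are given as CPM, the counts of a gene brought to a common library total, with that total adjusted by TMM, a scaling that lines up the bulk of genes between libraries. A gene was called at an adjusted p under 0.05 in the quasi-likelihood test of edgeR, after Benjamini-Hochberg adjustment over all 13940 genes tested. The labelled tissue matched its markers: Myl2, the ventricular myosin light chain, was at 4059, 4185 and 4350.1 CPM in MI-DAPA and 3347, 4115 and 4203 CPM in MI-NS. Summed markers of heart muscle cells (9 genes, 5 called higher and 0 lower) were at 57133 to 60396 CPM in MI-DAPA and 46226 to 48607 CPM in MI-NS. Summed fibroblast markers (8 genes, 0 called higher and 5 lower) were at 833 to 984 CPM in MI-DAPA and 1354 to 1847 CPM in MI-NS. Endothelial markers (8 genes, 4 called lower) were at 902 to 949 CPM in MI-DAPA and 1075 to 1199 CPM in MI-NS, and macrophage markers (8 genes, 2 called lower) at 155.5 to 173 CPM in MI-DAPA and 201 to 241 CPM in MI-NS. In such bulk tissue fewer cells of a type and less RNA per cell cannot be told apart. The atrial genes Myl7, Myl4 and Sln split the libraries across the groups: Myl7 was at 0.199, 12.1 and 6.84 CPM in MI-DAPA replicates 1 to 3 and at 22.9, 0.196 and 15.2 CPM in MI-NS replicates 1 to 3. Replicate 1 of MI-DAPA and replicate 2 of MI-NS were therefore low for these genes, while Bmp10, another atrial marker, had no count in any library. Nppa, also on the atrial list, did not follow this split and was called lower in MI-DAPA. It was at 272, 361 and 325 CPM in MI-DAPA and at 1469, 1293 and 1500 CPM in MI-NS.

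Of the 10 factors, Tbx5 was the 1 called by the test, at a level 1.5-fold higher in MI-DAPA. None was called lower, and 9 did not pass the test. All 10 factors passed the filter on low counts. By the same rule 16.5% of all tested genes were called, 8.69% as higher and 7.83% as lower, so 1 call among 10 is not more than genes in general gave. For 3 factors, Tbx5, Gata6 and Srf, every MI-DAPA library was above every MI-NS library, where 37.0% of all tested genes had groups that did not overlap, and 18.4% of all tested genes had MI-DAPA above. The same 3 factors were those with an unadjusted edgeR p under 0.05, against 32.3% of all tested genes, and none had such a p downward. DESeq2 also called Tbx5 alone of the 10, with an adjusted p of 0.000811. The median log2 fold change was 0.20 for the 10 factors and -0.02 for all tested genes. With library totals as the only scaling, the median of all tested genes lay at -0.12, and 410 genes were called higher and 1249 lower, against 1212 and 1092 with TMM.

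**Figure D1:**
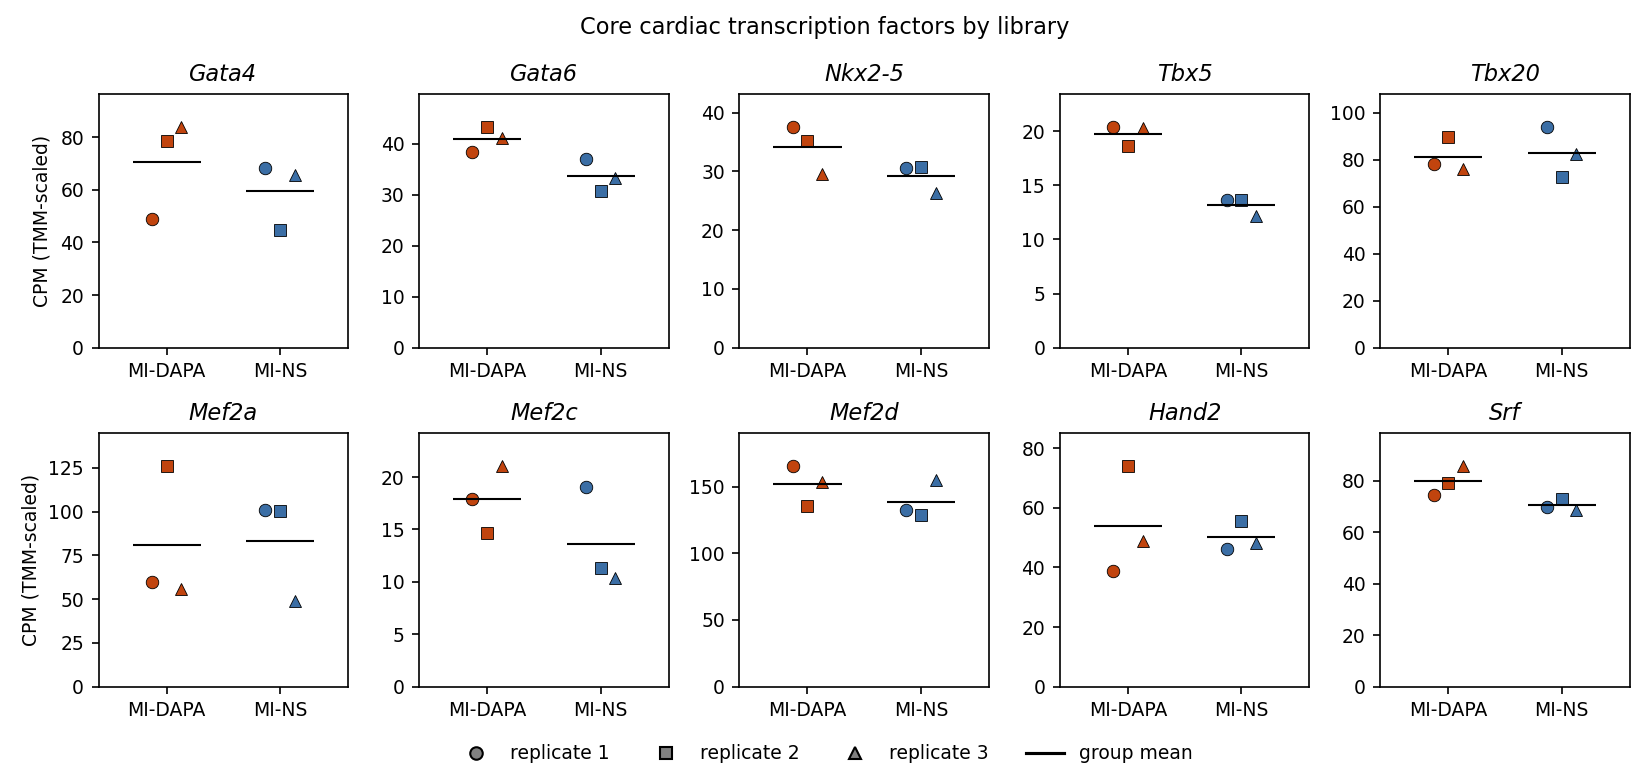
TMM-scaled CPM (vertical axes, each starting at 0) of each of the 10 factors in the MI-DAPA libraries on the left and the MI-NS libraries on the right, with the replicate number as the symbol and the group mean as a line. Tbx5 sits at 18.6 to 20.4 CPM in MI-DAPA and at 12.2 to 13.7 CPM in MI-NS, while the points of Mef2a, Gata4 and Hand2 scatter widely within a group.

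Compared per length of merged exons, the factors spanned a wide range of levels in the same tissue. In CPM per kilobase (kb) of exons, Srf had the highest mean level in MI-DAPA at 27.6 ± 1.97 (SD, n = 3), then Mef2d at 25.3 ± 2.53, Hand2 at 22.9 ± 7.75, Nkx2-5 at 19.9 ± 2.40 and Gata4 at 18.04 ± 4.86. A second band held Tbx20 at 6.77 ± 0.602 CPM per kb, Gata6 at 6.29 ± 0.390, Mef2a at 5.50 ± 2.69 and Tbx5 at 4.23 ± 0.216, and Mef2c was lowest at 1.14 ± 0.204. In this order the MI-DAPA libraries of neighbours failed to overlap at 2 places only, between Gata4 and Tbx20 and between Tbx5 and Mef2c. The order in MI-NS was the same but for Mef2a (5.68 ± 2.03 CPM per kb) and Gata6 (5.18 ± 0.489), which changed places. There the level was 24.4 ± 0.759 CPM per kb for Srf, 2.81 ± 0.182 for Tbx5 and 0.864 ± 0.304 for Mef2c, and neighbours failed to overlap at 4 places, between Hand2 and Nkx2-5, Gata4 and Tbx20, Gata6 and Tbx5, and Tbx5 and Mef2c. Among all tested genes ranked by this measure over the 6 libraries, Srf stood at percentile 92.8, Tbx5 at 55.3 and Mef2c at 24.9. Merged exons count all annotated transcripts, so a gene with long alternative exons, such as Mef2c with 15.7 kb, gets a lower value per kb than its main transcript would give.

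**Figure D2:**
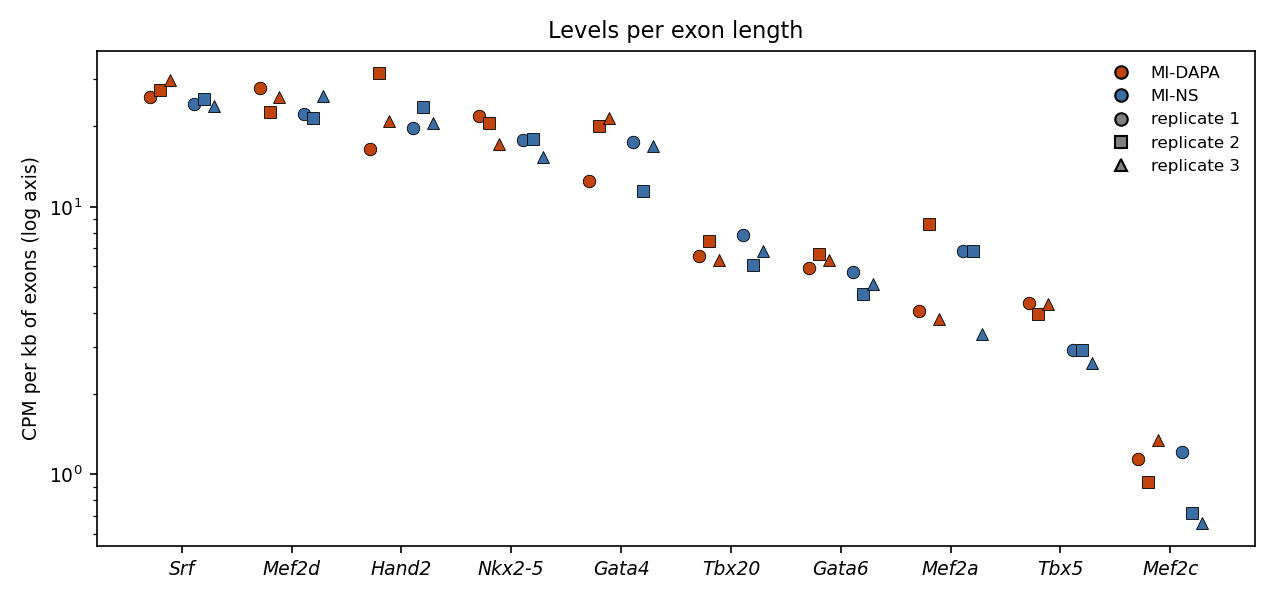
CPM per kb of merged exons (log axis) for each factor, ordered by its mean in MI-DAPA, with MI-DAPA libraries at the left and MI-NS libraries at the right of each gene and replicate numbers as symbols. An upper band runs from Srf to Gata4, a lower band from Tbx20 to Tbx5, and Mef2c lies alone at the bottom.

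Of the T-box genes, Tbx5 rose in MI-DAPA and Tbx20 did not pass the test. TBX5 is an activator needed for atrial and left ventricular development, for the conduction system and, in the adult heart, for rhythm and calcium handling. Tbx5 (ENSMUSG00000018263, mm10 chromosome 5, 119832668 to 119885219, plus strand) had 411, 378 and 353 counts, or 20.4, 18.6 and 20.3 CPM, in MI-DAPA replicates 1 to 3. In MI-NS replicates 1 to 3 it had 308, 278 and 205 counts, or 13.7, 13.6 and 12.2 CPM. All 3 MI-DAPA libraries were above all 3 MI-NS libraries, and the libraries of each group lay close together. The means were 19.8 ± 1.01 CPM in MI-DAPA and 13.2 ± 0.849 CPM in MI-NS (SD, n = 3 each), a log2 fold change of 0.59 ± 0.09 (SE, 95% interval 0.37 to 0.80), or 1.5-fold (1.29 to 1.74), with an edgeR adjusted p of 0.00643. The rise passed the test without any single library (log2 fold changes 0.54 to 0.64, edgeR adjusted p 0.0134 to 0.0321). The files of replicate 3 in both groups are named in another style. Without both of those libraries the log2 fold change of Tbx5 was 0.53 with an edgeR adjusted p of 0.0951, in a fit that called 24 genes in all, and replicate 3 alone had 20.3 CPM in MI-DAPA and 12.2 CPM in MI-NS.

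Tbx5 is more active in atria than in ventricles, and its values can be read beside the atrial genes. With the libraries low in Myl7 left out, MI-DAPA replicate 1 and MI-NS replicate 2, a choice made after seeing the data, its log2 fold change was 0.59 with an edgeR adjusted p of 0.0455. The part of atrial tissue in the rise was not tested. Of the 9 heart muscle markers, 5 were also called higher. Set against the mean log2 CPM of the 9 heart muscle markers in the same library, a description also chosen after the values were seen and not tested, Tbx5 lay at -7.72, -7.82 and -7.74 in MI-DAPA and at -8.04, -7.97 and -8.12 in MI-NS. The difference of 0.28 on the log2 scale was smaller than the log2 fold change of Tbx5 itself, against a reference that holds the 5 markers called higher. By this measure Mef2c also had a positive difference (0.13). The other factors had negative ones, from -0.02 for Gata6 to -0.38 for Mef2a. Tnnt2 and Tnni3 are markers that were not called. Per 10000 of their counts Tbx5 lay at 25.51, 21.99 and 24.98 in MI-DAPA and at 17.90, 14.68 and 16.21 in MI-NS. Every MI-DAPA library was above every MI-NS library by that measure too. The part of heart muscle content in the rise was not tested.

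TBX20 can activate or repress and is needed to keep adult heart muscle working. Tbx20 (ENSMUSG00000031965, chromosome 9, 24720812 to 24774303, minus strand) was at 78.3, 89.4 and 75.9 CPM in MI-DAPA and at 94.0, 72.6 and 82.3 CPM in MI-NS. In CPM the groups overlapped fully, with the highest and the lowest value both in MI-NS. The log2 fold change was -0.03 ± 0.11 (SE, 95% interval -0.28 to 0.22, edgeR adjusted p = 0.878). Set against the heart muscle markers as above, Tbx20 lay at -5.790, -5.565 and -5.838 in MI-DAPA and at -5.264, -5.563 and -5.369 in MI-NS. By that measure every MI-DAPA library was below every MI-NS library, with the nearest pair almost equal. The difference of -0.33 was not tested. Per 10000 counts of Tnnt2 and Tnni3 the groups overlapped, with Tbx20 at 97.9, 105.7 and 93.5 in MI-DAPA and at 123.2, 78.2 and 109.6 in MI-NS.

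A ratio of 2 counts from the same library does not depend on how libraries are scaled, and 5 pairs of related factors were compared in this way. The count of Tbx5 per count of Tbx20 was 0.261, 0.208 and 0.267 in MI-DAPA and 0.145, 0.188 and 0.148 in MI-NS. Every MI-DAPA library was above every MI-NS library. On the log2 scale the ratio averaged -2.03 ± 0.20 in MI-DAPA and -2.65 ± 0.21 in MI-NS (SD, n = 3 each), a difference of 0.61. The exact two-sided permutation p was 0.1, the smallest that 3 against 3 allows, and 0.5 after Benjamini-Hochberg adjustment over the 5 pairs.

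**Figure D3:**
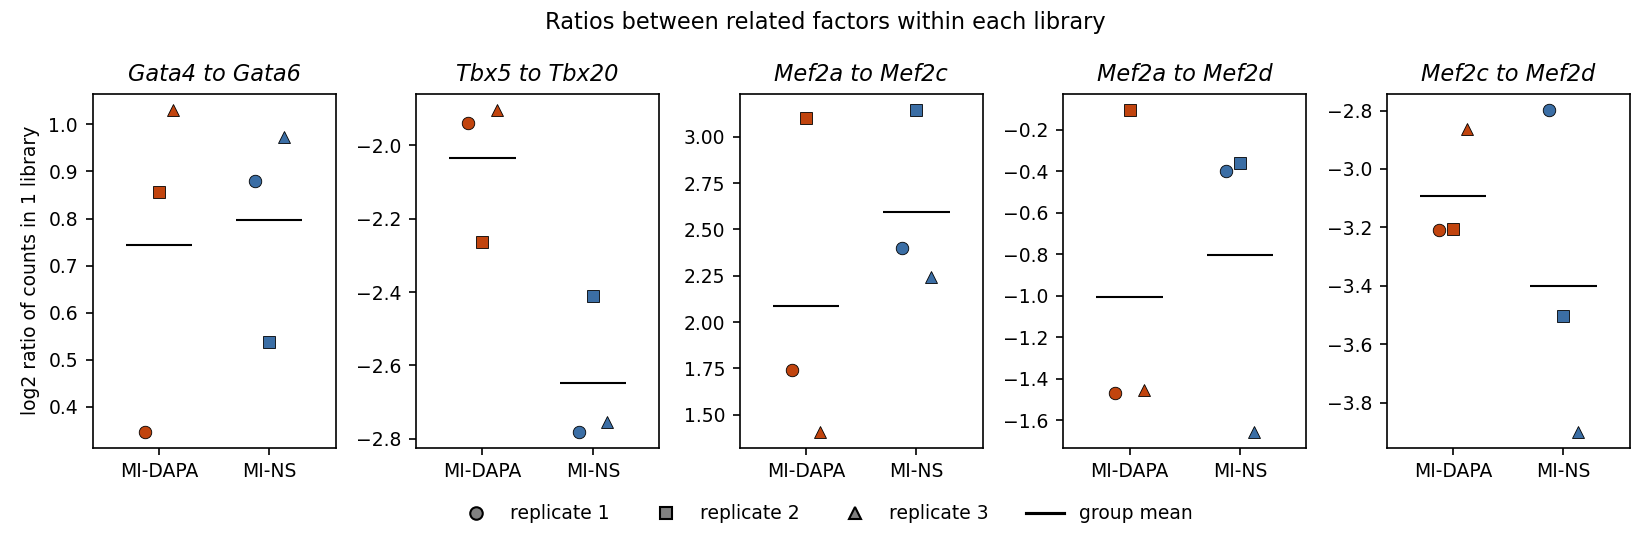
Log2 ratio of the counts of 2 related factors in the same library, for 5 pairs, with MI-DAPA left of MI-NS, replicate numbers as symbols and the group mean as a line; each panel has its own vertical axis. In the Tbx5 to Tbx20 panel alone all MI-DAPA libraries lie above all MI-NS libraries.

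**Figure D4:**
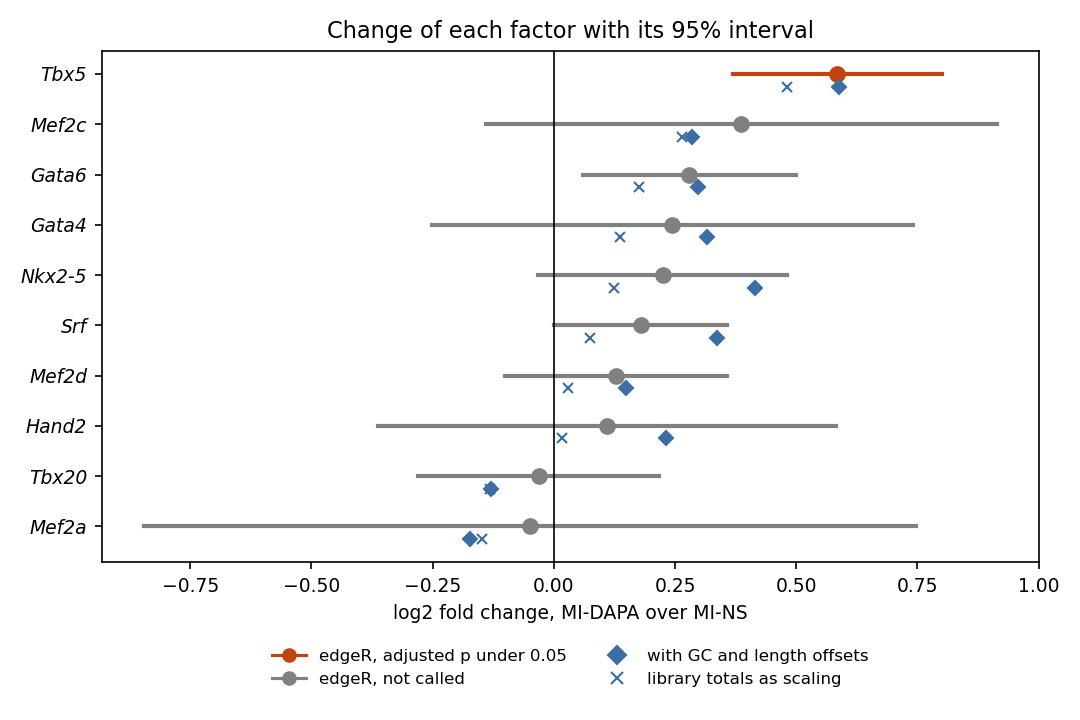
Log2 fold change of each factor, MI-DAPA over MI-NS (horizontal axis), with its 95% interval from edgeR, in red where called and grey where not; diamonds show the value with GC content and length offsets and crosses that with library totals as scaling. The interval of Tbx5 lies at 0.37 to 0.80, and the widest, for Mef2a, runs from -0.85 to 0.75.

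The 2 GATA factors did not pass the test, and they differed in how steady they were. GATA4 activates Nppa, Nppb and sarcomere genes and takes part in the hypertrophic response, and GATA6 acts beside it. Gata4 (ENSMUSG00000021944, chromosome 14, 63198922 to 63271692, minus strand) was at 48.7, 78.5 and 84.0 CPM in MI-DAPA replicates 1 to 3 and at 68.1, 44.6 and 65.6 CPM in MI-NS replicates 1 to 3. The lowest libraries, 1 in each group, lay close together, and the groups overlapped. The means were 70.4 ± 19.0 CPM in MI-DAPA and 59.4 ± 12.9 CPM in MI-NS, a log2 fold change of 0.24 ± 0.22 (SE, 95% interval -0.25 to 0.74, edgeR adjusted p = 0.485). The low libraries, MI-DAPA replicate 1 and MI-NS replicate 2, were the 2 where the atrial genes Myl7, Myl4 and Sln were low. The part of atrial tissue in this spread was not tested. Without those 2 libraries Gata4 was at 78.5 and 84.0 CPM in MI-DAPA against 68.1 and 65.6 CPM in MI-NS, with a log2 fold change of 0.28 ± 0.09 (SE) and an edgeR adjusted p of 0.115.

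Gata6 (ENSMUSG00000005836, chromosome 18, 11052510 to 11085635, plus strand) varied less. It was at 38.3, 43.4 and 41.1 CPM in MI-DAPA and at 37.0, 30.7 and 33.4 CPM in MI-NS. All MI-DAPA libraries were above all MI-NS libraries, though the nearest pair was close. The log2 fold change was 0.28 ± 0.10 (SE, 95% interval 0.06 to 0.50), or 1.21-fold, with an unadjusted edgeR p of 0.0187 and an adjusted p of 0.0829, so it was not called. Without MI-NS replicate 1 the value was 0.36 with an edgeR adjusted p of 0.0492. The count of Gata4 per count of Gata6 had log2 means of 0.74 in MI-DAPA and 0.80 in MI-NS, with an exact two-sided permutation p of 0.8.

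NKX2-5 is an early marker of the heart lineage that works with GATA4 and TBX5 at shared sites and keeps atrial, conduction and ventricular identity. Nkx2-5 (ENSMUSG00000015579, chromosome 17, 26838664 to 26841565, minus strand) was at 37.6, 35.2 and 29.6 CPM in MI-DAPA replicates 1 to 3 and at 30.7, 30.7 and 26.3 CPM in MI-NS replicates 1 to 3. Replicate 3 was lowest in both groups, and MI-DAPA replicate 3 fell within the MI-NS range. The log2 fold change was 0.22 ± 0.11 (SE, 95% interval -0.03 to 0.48, edgeR adjusted p = 0.211). With each library corrected for the GC content and length of its genes, the log2 fold change became 0.42 ± 0.08 with an edgeR adjusted p of 0.0131, which passes the threshold. Replicate 3 also had the largest share of mitochondrial counts in both groups, 40.7% in MI-DAPA and 42.0% in MI-NS, against 35.1% to 35.7% in the other MI-DAPA and 34.3% to 37.6% in the other MI-NS libraries. The part of library composition in the Nkx2-5 values was not tested.

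HAND2 is needed for the right ventricle and the outflow tract in the embryo, and in the adult it is also active in cardiac fibroblasts. Hand2 (ENSMUSG00000038193, chromosome 8, 57320983 to 57324517, plus strand) is shown with its promoter, from 250 bases before to 50 bases after the RefSeq start site (build GRCm38.p6, chr8:57320733-57321032, plus strand), because it holds a site for another factor of the group and one for HAND2 itself. The capitals mark CATCTG, an E-box that HAND2 can bind, at -246 to -241 from the start site, and TTATCT, which is the GATA site AGATAA on the other strand, at -172 to -167:
Hand2 promoter: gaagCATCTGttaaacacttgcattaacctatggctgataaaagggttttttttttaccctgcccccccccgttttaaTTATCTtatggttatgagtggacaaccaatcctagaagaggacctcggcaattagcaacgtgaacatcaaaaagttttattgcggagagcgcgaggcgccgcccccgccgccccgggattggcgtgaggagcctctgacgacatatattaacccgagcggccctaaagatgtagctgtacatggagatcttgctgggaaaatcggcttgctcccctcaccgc
AGATAA was the only form of the GATA site searched for, so the stretch tgataa in this window, which also holds the core GATA, is not marked. The letters AGATAA stood on either strand of 11.2% of 32544 mouse promoters of this length and CATCTG in 17.1%, so neither match is rare. Hand2 RNA was at 38.7, 74.1 and 49.0 CPM in MI-DAPA replicates 1 to 3 and at 46.2, 55.7 and 48.2 CPM in MI-NS replicates 1 to 3. MI-DAPA replicate 2 stood far above the other 5 libraries and MI-DAPA replicate 1 lowest of all, so the MI-NS values lay inside the MI-DAPA range. The log2 fold change was 0.11 ± 0.21 (SE, 95% interval -0.36 to 0.58, edgeR adjusted p = 0.757), and without MI-DAPA replicate 2 it was -0.18. A gene on the opposite strand, listed as AV026068 and named Hand2os1 in the annotation used, shares 461 bases with the exons of Hand2, 19.6% of their length. AV026068 was at 19.4, 22.7 and 17.9 CPM in MI-DAPA and at 21.8, 27.2 and 22.5 CPM in MI-NS (log2 fold change -0.25 ± 0.13, edgeR adjusted p = 0.210). No source used here says whether counting was by strand, and a read from this stretch could have gone to either gene.

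The MEF2 factors are activators of muscle genes that class II histone deacetylases hold back and that calcium signals release. None of the 3 that were tested here passed the threshold. The quasi-likelihood dispersion of edgeR sets the variation between libraries of the same group against that of the fitted model, and is moderated over all tested genes. By this estimate Mef2a and Mef2c ranked high among all tested genes, at percentiles 99.3 and 95.8, beside Gata4 at 96.9 and Hand2 at 96.1. Mef2d was near the middle at 58.8.

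Mef2a (ENSMUSG00000030557, chromosome 7, 67231163 to 67372858, minus strand) was at 59.9, 126 and 56.0 CPM in MI-DAPA replicates 1 to 3 and at 101, 100.5 and 49.1 CPM in MI-NS replicates 1 to 3. High and low libraries stood in both groups: MI-DAPA replicate 2 and MI-NS replicates 1 and 2 were high, and the highest library was 2.57-fold above the lowest. The means were 80.7 ± 39.5 CPM in MI-DAPA and 83.4 ± 29.7 CPM in MI-NS, and the log2 fold change was -0.05 ± 0.35 (SE, 95% interval -0.85 to 0.75, edgeR adjusted p = 0.943). The exons of Mef2a share 302 bases (2.06%) with Lysmd4 on the opposite strand, which was at 17.1, 13.6 and 15.4 CPM in MI-DAPA and at 11.2, 11.2 and 12.5 CPM in MI-NS and was called higher (log2 fold change 0.40 ± 0.12, edgeR adjusted p = 0.0459). The promoter of Mef2a is shown because it is the 1 among the factors' windows with a MEF2 site, which lies across the RefSeq start site at -2 to 8 (GRCm38.p6, chr7:67372809-67373108, minus strand, site in capitals):
Mef2a promoter: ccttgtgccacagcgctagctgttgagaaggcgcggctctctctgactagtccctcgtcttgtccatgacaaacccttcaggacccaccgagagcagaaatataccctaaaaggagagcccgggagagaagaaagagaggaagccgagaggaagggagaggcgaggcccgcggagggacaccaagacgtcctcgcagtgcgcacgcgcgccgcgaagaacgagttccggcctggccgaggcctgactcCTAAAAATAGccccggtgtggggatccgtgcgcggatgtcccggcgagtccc
A MEF2 site stood in 3.16% of all mouse promoters of this length. The other promoter windows searched, 9 in all for 7 of the 10 factors, had no such match. No window of Gata4, Gata6 or Tbx5 was searched.

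Mef2c (ENSMUSG00000005583, chromosome 13, 83504034 to 83667080, plus strand), the MEF2 gene needed first in the embryonic heart, was at 17.9, 14.7 and 21.1 CPM in MI-DAPA and at 19.1, 11.3 and 10.3 CPM in MI-NS. MI-NS replicate 1 was as high as the MI-DAPA libraries, and the other 2 MI-NS libraries were the lowest of all. The log2 fold change was 0.39 ± 0.23 (SE, 95% interval -0.14 to 0.91, edgeR adjusted p = 0.290). Without MI-NS replicate 1 it was 0.73 with an edgeR adjusted p of 0.0298, so that library decides whether Mef2c is called. MI-NS replicate 1 was also the library with the most Msln and Upk3b, markers of the epicardium. Msln had 3, 4 and 2 counts in MI-DAPA replicates 1 to 3 and 62, 1 and 28 counts in MI-NS replicates 1 to 3. The part of such tissue in the Mef2c values was not tested.

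Mef2d (ENSMUSG00000001419, chromosome 3, 88142372 to 88172086, plus strand), the MEF2 gene tied to stress-dependent remodelling in the adult mouse heart, was at 166, 136 and 154 CPM in MI-DAPA and at 133, 129 and 155 CPM in MI-NS. The groups overlapped, and the log2 fold change was 0.13 ± 0.10 (SE, 95% interval -0.10 to 0.36, edgeR adjusted p = 0.423). Per length of exons Mef2d was the main MEF2 gene in every library, at 84.1%, 70.4% and 83.3% of the 3 genes' summed CPM per kb in MI-DAPA and 73.3%, 74.0% and 86.6% in MI-NS. Mef2a took 12.4%, 26.7% and 12.4% in MI-DAPA and 22.7%, 23.5% and 11.2% in MI-NS, and Mef2c took 2.90% to 4.35% in MI-DAPA and 2.20% to 4.01% in MI-NS. These shares did not separate the groups. They depend on the lengths of merged exons, 14.7 kb for Mef2a, 15.7 kb for Mef2c and 5.985 kb for Mef2d. In counts Mef2d was also the highest in every library, but Mef2a came close in MI-DAPA replicate 2, with 2564 against 2754. The difference in log2 ratio was -0.51 for Mef2a to Mef2c (exact two-sided permutation p = 0.4), -0.20 for Mef2a to Mef2d (exact p = 1) and 0.31 for Mef2c to Mef2d (exact p = 0.5). Adjusted over the 5 pairs, these exact p-values were 0.833 to 1. An antisense gene of Mef2d, 1700113A16Rik, had 7, 4 and 4 counts in MI-DAPA and 13, 10 and 4 in MI-NS.

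SRF drives 2 sets of genes, actin and other cytoskeletal or muscle genes with partners of the myocardin family, and immediate-early genes with ternary complex factors. Srf (ENSMUSG00000015605, chromosome 17, 46546839 to 46556162, minus strand) was at 74.5, 79.3 and 85.9 CPM in MI-DAPA and at 69.9, 73.0 and 68.8 CPM in MI-NS. All MI-DAPA libraries were above all MI-NS libraries, by a small margin, and MI-NS libraries varied little. The means were 79.9 ± 5.71 CPM in MI-DAPA and 70.6 ± 2.19 CPM in MI-NS, a log2 fold change of 0.18 ± 0.08 (SE, 95% interval 0.00 to 0.36). The unadjusted edgeR p was 0.0487 and the adjusted p 0.153, so Srf was not called. With GC content and length offsets the log2 fold change was 0.34 with an edgeR adjusted p of 0.0639. The Srf promoter is shown because it holds CArG boxes, the sites that SRF itself binds. Its RefSeq window (GRCm38.p6, chr17:46556113-46556412, minus strand) has a pair of them, in capitals, at -82 to -73 and -62 to -53 from the start site:
Srf promoter: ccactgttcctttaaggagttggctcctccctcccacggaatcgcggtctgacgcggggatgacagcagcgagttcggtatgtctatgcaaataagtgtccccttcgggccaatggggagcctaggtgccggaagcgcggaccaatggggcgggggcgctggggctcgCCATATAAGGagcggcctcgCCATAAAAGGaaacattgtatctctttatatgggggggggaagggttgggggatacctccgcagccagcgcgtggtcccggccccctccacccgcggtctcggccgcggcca
A CArG box stood in 1.64% of all mouse promoters of this length, and in no other of the 9 windows searched, which leave out Gata4, Gata6 and Tbx5. The T-box site AGGTGT stood in 1 of the 9 windows, of Mef2c (13.8% of all promoters), and the NKX2-5 site AAGTGG in 0 (16.8%). A match is a stretch of letters and does not show binding.

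Most other transcription factors of the heart did not pass the test. Of 26 such genes 20 were tested, 2 were called higher, 2 lower and 16 not called, with a median log2 fold change of 0.02, where 8.69% of all tested genes were higher and 7.83% lower. Meis2, a homeodomain partner of cardiac factors, was at 16.6, 14.97 and 15.1 CPM in MI-DAPA and 10.8, 11.4 and 11.2 CPM in MI-NS (1.40-fold higher, edgeR adjusted p = 0.0132). Casz1, a zinc finger factor that binds TBX5, was at 45.1, 46.3 and 46.4 CPM in MI-DAPA and 36.6, 35.6 and 35.5 CPM in MI-NS (1.28-fold higher, edgeR adjusted p = 0.0139). Hey1, a Notch target that represses heart genes, was at 10.4, 9.99 and 8.91 CPM in MI-DAPA and 15.7, 17.1 and 15.3 CPM in MI-NS (log2 fold change -0.72, edgeR adjusted p = 0.00553). Tbx2, a T-box repressor, had a log2 fold change of -0.40 (edgeR adjusted p = 0.0461) and lost its call without any 1 of the 6 libraries (adjusted p 0.0622 to 0.151). In Meis2, Casz1, Hey1 and Tbx2 the groups did not overlap. Of the 20 tested genes of this list, 6 had every MI-DAPA library above every MI-NS library and 3 had every one below. Among all tested genes 37.0% had groups that did not overlap, and 18.4% had MI-DAPA above. Meis2 was not called in the fit that leaves out MI-DAPA replicate 1 (edgeR adjusted p = 0.0553), nor Casz1 in the one that leaves out MI-NS replicate 3 (0.0511). Scaled by library totals neither was called, so 0 genes of this list were then higher. Among those not tested for lack of counts, Isl1 had 0 counts in every library, Gata5 had 3, 7 and 11 counts in MI-DAPA and 15, 0 and 7 in MI-NS, and Hand1, Mef2b and Tbx1 had 21 counts at most in any library.

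Among 32 cofactors and corepressors that bind these factors, 7 were called higher, 3 lower and 22 not called, with a median log2 fold change of 0.12. Over all tested genes 8.69% were called higher and 7.83% lower, so the count called lower is near the background. Myocd, the coactivator of SRF in heart and smooth muscle, was at 28.5, 32.0 and 30.7 CPM in MI-DAPA and 20.8, 18.9 and 24.9 CPM in MI-NS (1.41-fold higher, edgeR adjusted p = 0.0218). Lbh, a cofactor described with NKX2-5 and TBX5 in the mouse heart, was at 588, 492 and 571 CPM in MI-DAPA and 374, 351 and 386 CPM in MI-NS (1.48-fold higher, edgeR adjusted p = 0.00565). Kat2b, the acetyltransferase PCAF, rose 1.48-fold (edgeR adjusted p = 0.00806), and Fhl2, a LIM protein that binds SRF, rose 1.34-fold (edgeR adjusted p = 0.0196). Hopx, which holds back SRF, and the deacetylases Hdac3 and Hdac4, of which Hdac4 is a repressor of MEF2, were the other 3 called higher. The lower ones were Hdac7 (log2 fold change -0.43, edgeR adjusted p = 0.0101), a class II deacetylase prominent in endothelium, and the ternary complex factors of SRF Elk3 (-0.38, edgeR adjusted p = 0.0338) and Elk4 (-0.41, edgeR adjusted p = 0.0445). With single libraries left out, 4 to 6 were higher and 1 to 3 lower, and 3 were higher when scaled by library totals. The count of 4 came with any of MI-DAPA replicates 1 and 3 and MI-NS replicates 1 and 2 left out. Hdac7 was the 1 lower gene that stayed called with any of MI-DAPA replicates 1 and 3 and MI-NS replicates 2 and 3 left out, where Elk3 and Elk4 both missed the threshold. Elk4 also missed it when MI-NS replicate 1 was left out, Fhl2 when MI-DAPA replicate 3 was, and Myocd when any of MI-DAPA replicates 2 and 3 and MI-NS replicates 1 and 2 was.

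Of 33 genes described as targets of these factors in heart muscle, all tested, 15 were called higher, 3 lower and 15 not called. Over all tested genes 8.69% were called higher and 7.83% lower, so the count called lower is near the background. The median log2 fold change was 0.22 for the targets and -0.02 for all tested genes. Slc8a1, the sodium-calcium exchanger, was at 146, 127 and 127 CPM in MI-DAPA and 81.3, 51.5 and 60.8 CPM in MI-NS (2.06-fold higher, edgeR adjusted p = 0.00551). Atp2a2, the calcium pump SERCA2, rose 1.64-fold (edgeR adjusted p = 0.00435), the potassium channel gene Kcnh2 1.62-fold (0.00602) and the small heat shock gene Hspb7 1.40-fold (0.00602). The 3 that fell were Nppa and Nppb, the natriuretic peptide genes, with log2 fold changes of -2.15 and -1.01 (edgeR adjusted p = 0.000196 and 0.0049), and Myh7, the slow myosin heavy chain gene (-0.34, edgeR adjusted p = 0.0369). Myh7 lost its call without any library but MI-DAPA replicate 2. Summed heart muscle markers were higher in MI-DAPA beside these genes, and 5 of those 9 markers were called higher. Myh6 weighs most in that sum, at a mean of 25828 CPM in MI-DAPA and 19211 CPM in MI-NS. The 4 markers not called were Tnnt2, Tnni3, Myl2 and Ttn, with log2 fold changes of -0.007, 0.04, 0.11 and 0.14. The lists share 7 genes (Actc1, Myh6, Myl2, Pln, Ryr2, Tnni3 and Tnnt2), of which 4 were called higher, so they are not separate sets. The part of heart muscle content in the result was not tested. The count of genes called higher was 9 with MI-DAPA replicate 3 left out, 8 with MI-NS replicate 3 left out and 9 when scaled by library totals.

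SRF targets were listed here as cytoskeletal and immediate-early genes, with the striated muscle actin genes kept in the heart muscle list above. There Actc1 was called higher (log2 fold change 0.29, edgeR adjusted p = 0.0468) and Acta1 was not called (-0.40, edgeR adjusted p = 0.0515). In the SRF list the genes called were cytoskeletal and matrix genes, all lower, and none of the immediate-early genes was called. Of 27 tested in both classes, 0 were called higher (8.69% of all tested genes), 10 lower (7.83% of all tested genes) and 17 not called, with a median log2 fold change of -0.42. At an unadjusted edgeR p under 0.05, 2 were higher (Vcl and Fos) and 14 lower, where all 13940 tested genes gave 2220 higher and 2279 lower. DESeq2 called 1 higher and 12 lower, where it called 1263 higher and 1043 lower of all 13940 tested genes. The 4 with the smallest p were the smooth muscle actin Acta2 at 85.5, 87.9 and 94.3 CPM in MI-DAPA and 153, 144 and 175 CPM in MI-NS (log2 fold change -0.82, edgeR adjusted p = 0.00317), Tagln (-0.92, adjusted p = 0.00451), the tropomyosin Tpm2 (-0.57, 0.00499) and the actin crosslinker Flna (-0.52, 0.00642). Several of these genes are also markers of smooth muscle cells and activated fibroblasts. Summed smooth muscle and pericyte markers (8 genes, 1 called higher and 3 lower, which are Acta2, Tagln and Myh11) were at 1136 to 1192 CPM in MI-DAPA and 1238 to 1341 CPM in MI-NS, and fibroblast markers were lower as given above. Their part in the result was not tested. Of the immediate-early genes, Fos was at 7.45, 20.7 and 12.8 CPM in MI-DAPA and 7.19, 8.68 and 8.73 CPM in MI-NS, while Egr1 was at 19.3, 65.3 and 41.7 CPM in MI-DAPA and 21.8, 34.6 and 29.7 CPM in MI-NS, and neither was called. MI-DAPA replicate 2 was highest for both, as it was for Mef2a and Hand2. Their log2 fold changes were 0.74 and 0.55, beside 0.022 for Egr3, -0.073 for Ier2, -0.096 for Fosb, -0.45 for Junb and -0.76 for Egr2, so these genes had no common sign. The count of genes called lower was 6 without MI-DAPA replicate 3 and 7 to 12 when any other library was left out. Without replicate 3 of both groups, Nppa was the 1 gene of these 4 lists that was called (edgeR adjusted p = 0.0165).

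**Figure D5:**
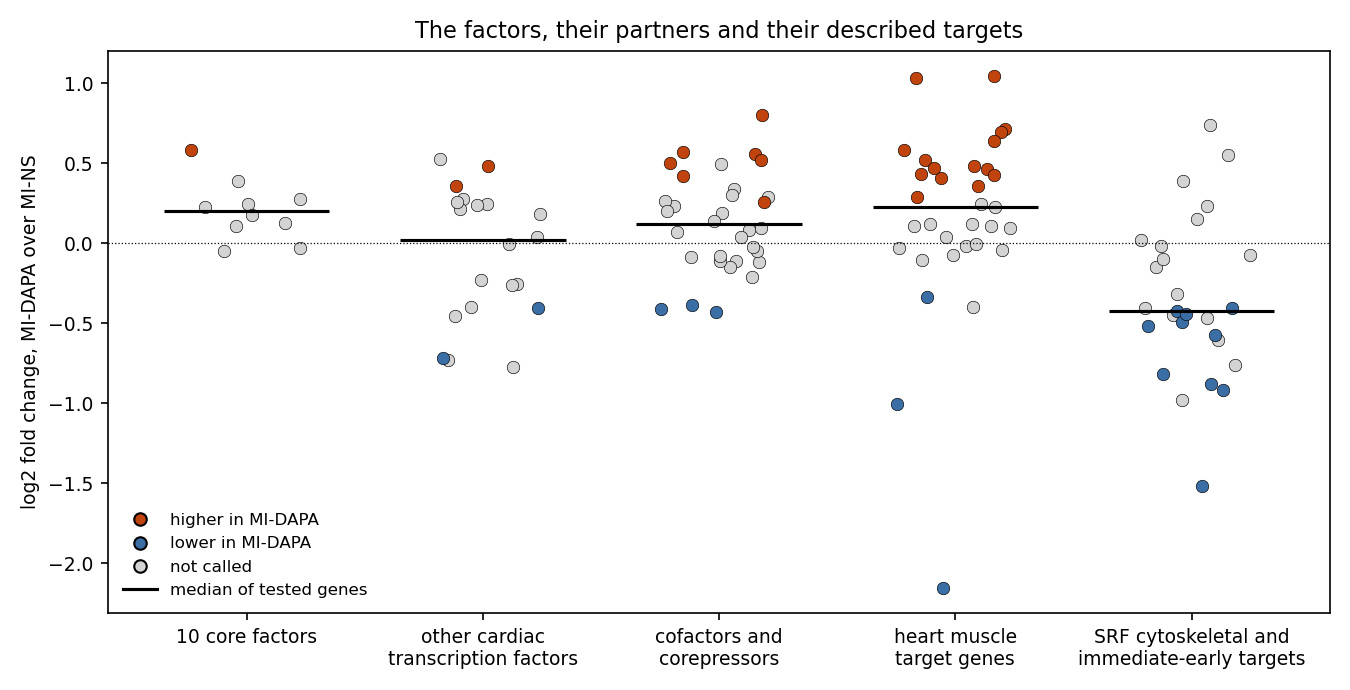
Log2 fold change, MI-DAPA over MI-NS (vertical axis), of the 10 core factors and of the tested genes of 4 lists around them, 1 point a gene, red where called higher, blue where called lower and grey where not called, with the median as a line. Heart muscle targets lie mostly above 0 with Nppa far below at -2.15, and SRF cytoskeletal and immediate-early targets have a median of -0.42.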

How the data were processed

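Per the labels' protocols, mRNA was isolated from left ventricle RNA, fragmented and sequenced on an Illumina instrument. What the authors deposited is a table of raw counts for each library; it lists 34745 genes, and 14527 of them had no count in any library. The submitters' processing notes name mm10, StringTie 1.3.0 and edgeR; no source used here gives the aligner, the counting program or the use of strand. For 27 genes a name that had become a date was restored from the identifier, and 34267 identifiers matched GENCODE M21, which gave exon lengths and overlaps. Groups were read from the titles, which number biological replicates but name no animal, so the p-values reflect spread among these libraries, which may be technical. All pairs of libraries differed by more than sampling noise (chi-square over degrees of freedom at least 9.94).

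The counts were fitted in edgeR 4.0.16 (R 4.3.3): filterByExpr (minimum count 10, minimum total 15) kept 13940 genes, which were scaled by TMM and tested by glmQLFTest with Benjamini-Hochberg adjustment over all of them at 0.05. The common coefficient of variation between libraries was 0.139. The floor of 3 counts per library was 0.146 to 0.174 CPM by raw library totals, without the TMM adjustment, and covers counting error alone. CPM were computed here. Ratios used a pseudocount of 0.5 and an exact permutation test. Promoters are RefSeq windows of GRCm38.p6, searched on both strands. The steps were tested on simulated data. Members, lists and tests were chosen with earlier results of these data known. Named genes are the 10 factors and up to 4 genes with the smallest p called in each direction of each list. Markers needed to read a marker list and genes that overlap a factor are also named. Actc1, Acta1, Hopx, Hdac3, Hdac4, Vcl and the immediate-early genes were added after their values were seen. Alternatives were other scalings, filters, DESeq2 1.42.0, left-out libraries, a replicate block and GC content and length offsets (splines with 5 degrees of freedom, for 99.7% of tested genes).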

Additional observations from a re-analysis of the deposited data

How the results depend on the processing

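Tbx5 was called in 16 of 17 alternatives, with log2 fold changes of 0.48 to 0.64. The exception was the fit without replicate 3 of both groups (0.53, edgeR adjusted p = 0.0951), in which the factors had 0 genes higher, the other cardiac transcription factors 0 in either direction, the cofactors 0 in either direction, the heart muscle targets 0 higher and 1 lower, the SRF targets 0 lower and all genes 8 higher and 16 lower; fewer samples enter that fit, and the cause was not tested further. GC content and length offsets gave 2 factors higher (Nkx2-5 joined), 4 other transcription factors higher and 1 lower.

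The replicate numbers were shared between groups, and the labels do not say that a number marks a shared animal or day. Deviations from the group means of same-numbered libraries had correlations of 0.044, -0.005 and 0.113 for replicates 1, 2 and 3, so the numbers were not taken to pair the libraries. The value for replicate 3 was the highest of the 9 pairs across groups, which is a hint from the data, not from the design. With the replicate block 2307 genes were called, Tbx5 kept its call (edgeR adjusted p = 0.0147) and 1 other transcription factor was lower. The block with GC content and length offsets gave 3 factors higher, with Nkx2-5 and Srf (0.33, edgeR adjusted p = 0.0407), 4 other transcription factors higher and 1 lower, and 5 heart muscle targets lower.

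With library totals as the only scaling, 0 other transcription factors, 3 cofactors, 9 heart muscle targets and 410 of all genes were higher. SRF targets had 1 gene higher with DESeq2 size factors, with at least 1 CPM in 3 libraries, and with DESeq2. Other transcription factors had 1 lower without a filter and with at least 1 CPM. With the libraries under 1 CPM of Myl7 left out, an alternative chosen after seeing the data, the counts higher and lower were 0 and 1 for other transcription factors, 3 and 0 for cofactors, 395 and 482 for all genes, with 8 heart muscle targets and 1 SRF target higher.

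Leaving out 1 library at a time gave 1 to 3 factors higher and 0 lower, 1 to 2 other transcription factors higher and 1 to 2 lower, 4 to 6 cofactors higher and 1 to 3 lower, 8 to 13 heart muscle targets higher and 2 to 3 lower, 0 to 1 SRF targets higher and 6 to 12 lower, and 541 to 1087 of all genes higher and 457 to 844 lower. The 3 factors without MI-NS replicate 1 were Tbx5, Gata6 and Mef2c.

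Signs changed for values that no fit called. With single libraries left out, the log2 fold change of Tbx20 ran over -0.11 to 0.078, that of Mef2a over -0.52 to 0.18 and that of Hand2 over -0.18 to 0.30, the last negative when MI-DAPA replicate 2 was left out. Without replicate 3 of both groups Tbx20 was at 0.029, and without the libraries low in Myl7 Mef2a was at 0.28. The log2 ratio difference ran over -0.20 to 0.15 for Gata4 to Gata6 and over -0.66 to 0.025 for Mef2a to Mef2d. The cause was not tested. The number of libraries limits the precision: the 95% intervals of Mef2a, Gata4, Mef2c and Hand2 include changes about as large as that of Tbx5 or larger.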

Other observations

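Markers of tissue other than ventricular muscle varied between libraries of the same group. Myl4, the atrial light chain, was at 1.99, 22.3 and 16.9 CPM in MI-DAPA replicates 1 to 3 and at 26.4, 1.91 and 20.6 CPM in MI-NS replicates 1 to 3. Upk3b, an epicardial marker, was at 0.298, 0.246 and 0.862 CPM in MI-DAPA replicates 1 to 3 and at 5.46, 0.049 and 2.61 CPM in MI-NS replicates 1 to 3. High Myl4 values thus stood in 2 libraries of each group, and high Upk3b values in MI-NS replicates 1 and 3. Gata5, a GATA factor of the endocardium and epicardium, had its most counts in the library with the most Upk3b, 15 in MI-NS replicate 1, and 0 in MI-NS replicate 2. Of the epicardial list, 3 of 6 genes were tested and none was called by edgeR, with 1 lower at an unadjusted p under 0.05 (Upk3b). Lymphoid markers were too low to test (5 genes, 0.596 to 1.44 summed CPM in MI-DAPA and 0.653 to 1.64 in MI-NS), and the 5 red blood cell genes were not called, at 214 to 330 summed CPM in MI-DAPA and 197 to 260 in MI-NS.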
